A study of Saccharomyces cerevisiae with 11 samples.

Results

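The genes described here are 43 members of the amino acid synthesis pathways of Saccharomyces cerevisiae, out of 5756 genes listed in any of the 11 libraries. They were chosen by systematic name and cover 8 groups: 7 histidine genes, 3 leucine genes, 7 genes of isoleucine and valine synthesis with the branched-chain aminotransferases, 10 aromatic genes, 5 homoserine and threonine genes, 4 serine genes, 3 proline genes and 4 genes for glutamate, glutamine and asparagine. The lysine, arginine and sulfur pathways are not among them. All 43 were listed in every library and passed the filter on low counts in each comparison. The study compared a pair of yeast strains. In ΔES7S cells the plasmid-borne rRNA lacks ES7S, one of the expansion segments by which the 18S rRNA of the 40S subunit exceeds its bacterial counterpart. In WT cells the plasmid carries the full rRNA sequence. Both strains are depleted of genomic rDNA, so that plasmids are the sole source of rRNA, and both were grown in rich medium (YPD) to an OD of 0.8. The series text calls the parent yJD1045 and the sample fields yJD1046, alike for both groups, and the labels do not say whether each strain is 1 clone. Ribosome-protected fragments (footprints) were sequenced from 3 ΔES7S and 3 WT samples (replicates 1 to 3 each). Poly(A)-enriched mRNA was sequenced from 3 ΔES7S samples (replicates 1 to 3) and 2 WT samples (replicates 2 and 3).

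Each of these pathways builds its amino acid from an intermediate of central carbon metabolism by a fixed chain of enzymes, and the first enzyme of a chain is often inhibited by its end product. In yeast most of these genes are also under general amino acid control: when an amino acid runs short, the kinase Gcn2 phosphorylates eIF2, translation of the GCN4 mRNA increases through short open reading frames in its leader, and the activator Gcn4 raises transcription of the synthesis genes. Pathway-specific activators act beside it, such as Leu3 for leucine and Bas1 with Pho2 for histidine. Cells in rich medium take up amino acids and need these enzymes less.

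Library totals ran from 5712239 to 20262647 counts for footprints and from 17981273 to 57968667 for mRNA. Whether the replicates come from separate cultures is not stated in the labels, and p-values therefore measure the spread between these samples. Across 4224 genes, which are not independent replicates, log2 CPM (library-scaled counts) correlated within ΔES7S with r from 0.954 to 0.985 in footprints and from 0.955 to 0.981 in mRNA, and within WT with r from 0.988 to 0.991 in footprints and 0.989 in mRNA. The genes of chromosome II, whose systematic names begin with YB, stood apart as a whole. Their median footprint log2 fold change (ΔES7S over WT) was 0.60, and 261 of the 383 tested (68.1%) were called higher in ΔES7S. On the other 15 nuclear chromosomes the medians ran from -0.08 to -0.0019 and 7.64% to 12.4% of genes were called higher. The median mRNA change of chromosome II was 0.51 over 390 genes, against -0.09 to -0.0075 on the other chromosomes. The median level of chromosome II genes lay 0.54 to 0.58 above the WT mean in the ΔES7S footprint libraries and 0.54 to 0.61 above it in the ΔES7S mRNA libraries, on the log2 scale, while the WT libraries lay between -0.0064 and 0.0078. DNA copy number was not measured. Of the 43 members only HIS7 and ARO4, which are neighbours, lie on chromosome II, so values for the other 41 are also given. In footprints the a-cell markers (5 genes) summed to 281 to 305 CPM in ΔES7S and 324 to 352 in WT. The alpha-cell markers (4 genes) summed to 6.55 to 11.3 CPM in ΔES7S footprints and 9.55 to 11.9 in WT. In mRNA the a-cell sums were 380 to 413 CPM in ΔES7S and 400 to 431 in WT. The alpha-cell mRNA sums were 47.6 to 61.5 CPM in ΔES7S and 42.1 to 48.0 in WT. Most of this was SAG1, with mean mRNA of 49.1 CPM in ΔES7S and 40.8 in WT. That is above the a-cell genes MFA1 (22.0 and 27.8) and BAR1 (12.4 and 25.2). In ΔES7S footprints 3 of the 5 a-cell genes were called lower, against 12.6% of all genes tested.

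The footprint comparison asks on which synthesis genes ribosome occupancy differed in ΔES7S cells, relative to all genes of the library. Footprints were lower in ΔES7S on 11 of the 43 members (25.6%), spread over 6 of the 8 groups: HIS4 for histidine, ARO2, TRP3 and TRP4 for the aromatic pathway, HOM3 and THR1 for threonine, SER3 and SER33 for serine, PRO1 for proline, and GLN1 and ASN2 for the amides. They were higher on 2 (4.65%), HIS7 and ARO4, and 30 did not pass the test. Footprints alone do not separate less mRNA from fewer ribosomes per mRNA. In these bulk libraries fewer cells that use a gene and less RNA per cell cannot be told apart either. The falls were moderate, from -0.36 for TRP3 to -0.93 for SER3 on the log2 scale, and the leucine genes and the isoleucine and valine genes had no call. Over all 5442 genes tested 12.6% were called lower and 14.2% higher (26.9% in all; edgeR's quasi-likelihood test, Benjamini-Hochberg adjusted p under 0.05). The median log2 fold change of the 43 members was -0.24, with 35 of them below 0, against 0.0019 for all genes tested. Among the 41 members outside chromosome II, 11 were called lower (26.8%) and 0 higher, with a median of -0.27, against 13.5% lower, 10.2% higher and a median of -0.03 for all 5059 genes outside that chromosome. At an unadjusted p under 0.05, 15 members were lower and 3 higher in the same edgeR test. In either direction that is 18 of 43 members, near the share of all genes, 2131 of 5442. DESeq2 called 14 members lower and 2 higher, against 727 lower and 836 higher of the 5442 genes.

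Every ΔES7S library lay below every WT library for 19 members (44.2%, against 20.9% of all genes) and above every WT library for 3 (6.98%, against 21.6%). The 43 members took 1.201% to 1.35% of footprint counts in ΔES7S and 1.48% to 1.64% in WT, ranges that do not overlap. The count of calls rests on single libraries: with ΔES7S replicate 2, WT replicate 2 or WT replicate 3 left out, HIS4 and GLN1 were the members still called lower and none was called higher. In that order, these fits called 325 of 5462, 439 of 5464 and 317 of 5463 genes lower, so 2 of 43 members was no excess over all genes. Without WT replicate 1, 9 members were lower and 0 higher, against 582 lower and 588 higher of 5460 genes. Without ΔES7S replicate 1, 16 members were lower and 2 higher, against 685 lower and 791 higher of 5459 genes.

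**Figure D1:**
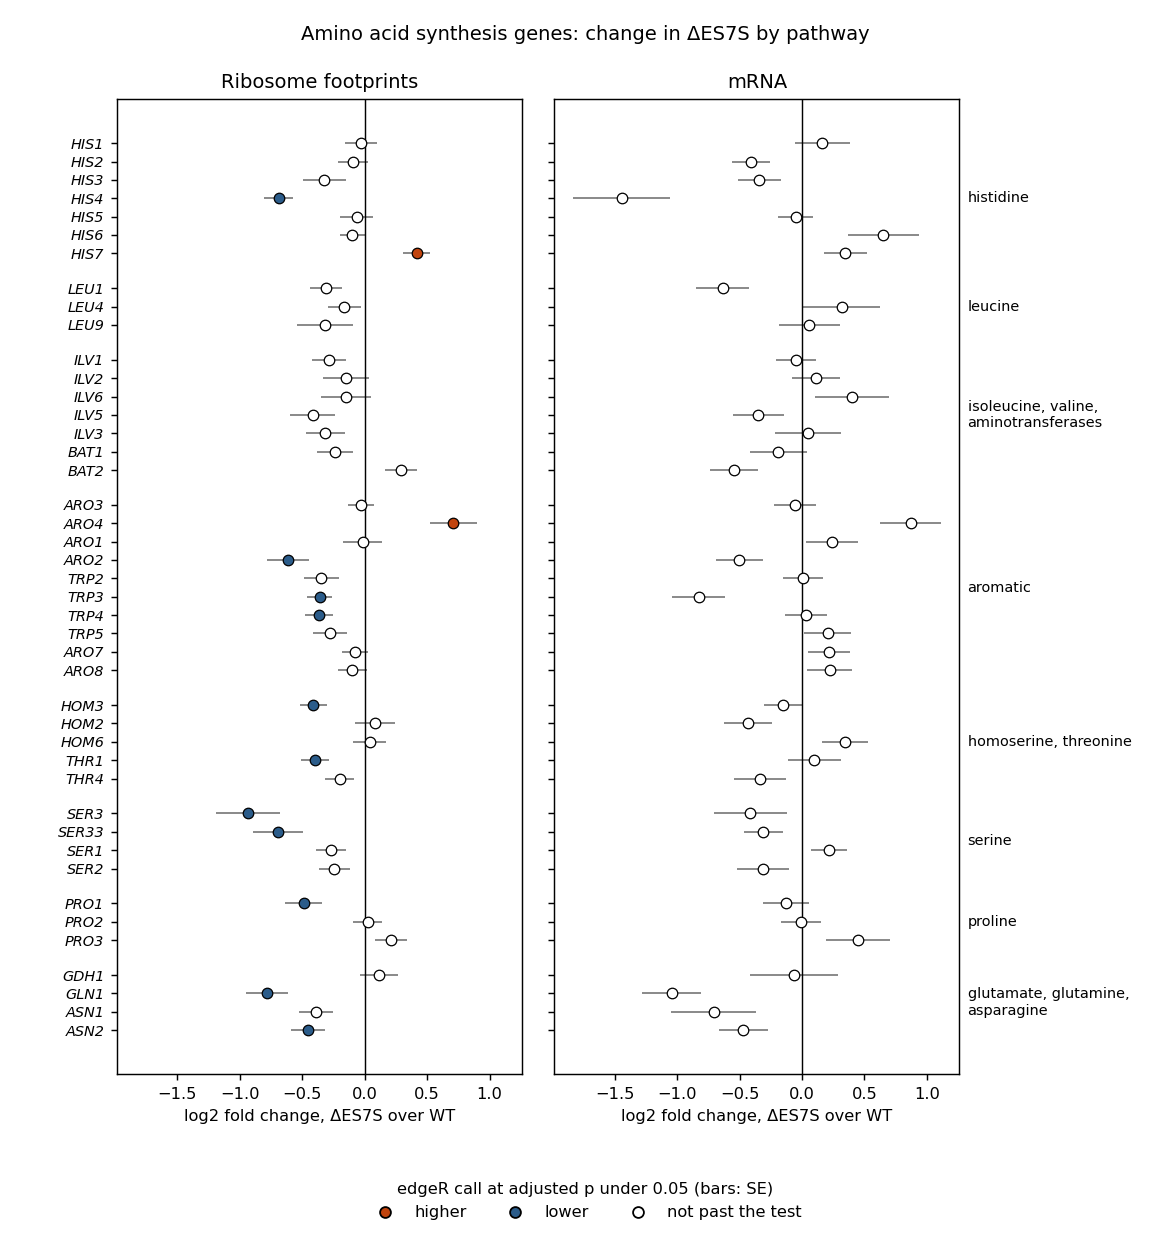
Log2 fold change (x axis, ΔES7S over WT) of footprints (left) and mRNA (right) for each of the 43 members (y axis, grouped by pathway), with bars of 1 SE; filled points passed edgeR's test. In footprints 11 members are called lower and 2 higher, and in mRNA none is called.

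Histidine synthesis was called at HIS4 and HIS7 only. HIS4 (YCL030C) encodes an enzyme with 3 activities of the pathway, including the last step, and is the classic reporter of Gcn4 activity. Its footprint level was 225, 246 and 237 CPM in ΔES7S replicates 1 to 3, against 373, 367 and 397 CPM in WT replicates 1 to 3. All 3 ΔES7S libraries lay below all 3 WT libraries, with little spread in either group. The log2 fold change was -0.69 ± 0.12 (SE; edgeR adjusted p = 0.00243), which is 1.61-fold lower. HIS7 (YBR248C) encodes the glutamine amidotransferase and cyclase in the middle of the pathway. Its footprints were 214, 195 and 185 CPM in ΔES7S replicates 1 to 3, against 136, 152 and 154 CPM in WT replicates 1 to 3. The groups did not overlap, and HIS7 was higher in ΔES7S, with a log2 fold change of 0.42 ± 0.11 (edgeR adjusted p = 0.0186). HIS7 lies on chromosome II, and its change differed from the median of that chromosome by -0.18, so that HIS7 lay below the typical gene there. The part of the chromosome-wide shift in this result was not tested. The other 5 histidine genes, HIS1, HIS2, HIS3, HIS5 and HIS6, had footprint log2 fold changes between -0.32 (HIS3) and -0.029 (HIS1) and did not pass. HIS1, the first enzyme of the pathway, had 209 to 259 CPM in ΔES7S, against 221 to 252 CPM in WT, and these ranges overlap.

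The serine genes had the lowest median of the 8 groups, -0.48, and 2 of 4 were called, both lower. SER3 (YER081W) and SER33 (YIL074C) encode the 2 forms of 3-phosphoglycerate dehydrogenase, the first step from glycolysis to serine. SER3 footprints were 65.2, 96.7 and 110.0 CPM in ΔES7S replicates 1 to 3, against 125, 164 and 227 CPM in WT replicates 1 to 3. The libraries of each group were spread by over 1.5-fold, yet the groups did not overlap. The log2 fold change of -0.93 ± 0.26 (edgeR adjusted p = 0.0350) was the lowest of all 43 members. SER33 footprints were 131, 197 and 232 CPM in ΔES7S replicates 1 to 3, against 331, 313 and 259.6 CPM in WT replicates 1 to 3. Again the highest ΔES7S library lay under the lowest WT library, with a log2 fold change of -0.70 ± 0.20 (edgeR adjusted p = 0.0301). The paralogs are alike in sequence, and how reads that match both were counted is not given in the sources used here, so the split of counts between them is uncertain. The 2 later enzymes, the transaminase gene SER1 and the phosphatase gene SER2, had -0.27 ± 0.12 and -0.24 ± 0.12 (edgeR adjusted p = 0.129 and 0.174). SER2 had 36.1 to 46.0 CPM in ΔES7S, against 44.9 to 53.5 CPM in WT, the smallest difference of the pathway.

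In the glutamate, glutamine and asparagine group, 2 of 4 genes were lower. GLN1 (YPR035W) encodes glutamine synthetase, which fixes ammonium onto glutamate. Its footprints were 718, 626 and 559 CPM in ΔES7S replicates 1 to 3, against 911, 1161 and 1191 CPM in WT replicates 1 to 3. No ΔES7S library reached the WT range, and the log2 fold change was -0.78 ± 0.17 (edgeR adjusted p = 0.00730), a 1.72-fold lower level. ASN1 (YPR145W) and ASN2 (YGR124W) encode the 2 asparagine synthetases, which take their nitrogen from glutamine and are alike in sequence, so that reads could be split between them. ASN2 footprints were 308, 303 and 244 CPM in ΔES7S replicates 1 to 3, against 396, 413 and 361 CPM in WT replicates 1 to 3. The groups were apart, at -0.46 ± 0.13 (edgeR adjusted p = 0.0302). ASN1 had -0.39 ± 0.13 and just missed the threshold (edgeR adjusted p = 0.0548), with 418 to 488 CPM in ΔES7S, against 563 to 649 CPM in WT and no overlap. GDH1, the glutamate dehydrogenase that makes glutamate from 2-oxoglutarate and ammonium, had the highest value of the group, 0.12 ± 0.15 (edgeR adjusted p = 0.604), with overlapping libraries.

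Threonine is made from aspartate by way of homoserine, and 2 of the 5 genes of this chain were lower in ΔES7S. HOM3 (YER052C) encodes aspartate kinase, the first and feedback-inhibited step. HOM3 footprints were 212, 222 and 208 CPM in ΔES7S replicates 1 to 3, against 282, 279.5 and 290.0 CPM in WT replicates 1 to 3. Both groups were tight and apart, with a log2 fold change of -0.41 ± 0.11 (edgeR adjusted p = 0.0171). THR1 (YHR025W), homoserine kinase, the first step from homoserine to threonine, had 116, 118 and 101 CPM in ΔES7S replicates 1 to 3, against 135, 157 and 149 CPM in WT replicates 1 to 3. The groups did not overlap, and the change was -0.40 ± 0.11 (edgeR adjusted p = 0.0234). HOM2 and HOM6, whose enzymes take aspartyl phosphate on to homoserine, had 0.079 ± 0.16 and 0.039 ± 0.13, and THR4, threonine synthase, had -0.20 ± 0.11, and these 3 did not pass. HOM2, the highest of the chain, had 1 ΔES7S library below and 2 above the WT libraries, at 360.1, 319 and 228 CPM in ΔES7S and 288, 283 and 287 CPM in WT. In proline synthesis the first enzyme, glutamate kinase (PRO1, YDR300C), was the one gene of 3 called. PRO1 footprints were 59.6, 54.6 and 81.1 CPM in ΔES7S replicates 1 to 3, against 87.6, 85.3 and 97.8 CPM in WT replicates 1 to 3. All ΔES7S libraries lay below the WT libraries, with replicate 3 close to them, and the log2 fold change was -0.49 ± 0.15 (edgeR adjusted p = 0.0334). PRO2 had 0.024 ± 0.12, and PRO3, whose enzyme completes proline, had 0.21 ± 0.13 (edgeR adjusted p = 0.248).

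The aromatic pathway first makes chorismate and then branches to tryptophan and to phenylalanine and tyrosine. Of its 10 genes 3 were lower and 1 was higher. ARO4 (YBR249C) and ARO3 (YDR035W) encode the 2 DAHP synthases of the first step, which are inhibited by tyrosine and by phenylalanine. ARO4 footprints were 456, 364 and 257 CPM in ΔES7S replicates 1 to 3, against 205, 217 and 234 CPM in WT replicates 1 to 3. The ΔES7S libraries lay above WT but far apart from each other, and the log2 fold change was 0.71 ± 0.19 (edgeR adjusted p = 0.0194). ARO4 is on chromosome II as well, and its change was 0.11 above the median of that chromosome. The part of that shift in the ARO4 result was not tested. ARO3, which is on chromosome IV, had 223 to 240.0 CPM in ΔES7S, against 228 to 240.2 CPM in WT and a log2 fold change of -0.027 ± 0.11 (edgeR adjusted p = 0.873). ARO2 (YGL148W), chorismate synthase, at the end of the common chain, had 232, 229 and 172 CPM in ΔES7S replicates 1 to 3, against 267, 387 and 313 CPM in WT replicates 1 to 3. The highest ΔES7S library was below the lowest WT library, at -0.61 ± 0.17 (edgeR adjusted p = 0.0209). On the tryptophan branch TRP3 (YKL211C), which encodes the indole-glycerol-phosphate synthase and partner of anthranilate synthase, had 90.0, 92.9 and 90.7 CPM in ΔES7S replicates 1 to 3, against 110.0, 121 and 119 CPM in WT replicates 1 to 3. TRP4 (YDR354W), anthranilate phosphoribosyl transferase, had 72.3, 83.8 and 77.1 CPM in ΔES7S replicates 1 to 3, against 90.1, 111 and 98.6 CPM in WT replicates 1 to 3. Both were lower in ΔES7S without overlap, at -0.36 ± 0.10 for TRP3 and -0.37 ± 0.11 for TRP4 on the log2 scale (edgeR adjusted p = 0.0212 and 0.0369). TRP2 and TRP5, the first and last genes of that branch, had -0.35 ± 0.14 and -0.28 ± 0.14 with all ΔES7S libraries below WT, and did not pass (edgeR adjusted p = 0.0887 and 0.157). ARO1, ARO7 and ARO8 lay between -0.10 and -0.016.

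None of the 10 genes of the leucine group and of the isoleucine and valine group passed the footprint test. LEU4 (YNL104C) and LEU9 (YOR108W) encode the 2 forms of isopropylmalate synthase, the first step of leucine synthesis. LEU4 had -0.16 ± 0.13 and LEU9 -0.32 ± 0.22 (edgeR adjusted p = 0.389 and 0.326), and LEU1, isopropylmalate isomerase, had -0.31 ± 0.13. LEU9 was uneven within ΔES7S, at 60.1, 40.6 and 29.6 CPM in ΔES7S and 49.4, 54.6 and 60.2 CPM in WT. Among ILV1, ILV2, ILV6, ILV5 and ILV3 the values ran from -0.42 (ILV5, acetohydroxyacid reductoisomerase) to -0.15 (ILV6, the regulatory subunit of acetolactate synthase), with ILV2, its catalytic subunit, at the same rounded value. ILV5 footprints were 1183, 971 and 833 CPM in ΔES7S and 1121, 1448 and 1407 CPM in WT, with 1 ΔES7S library inside the WT range (edgeR adjusted p = 0.112). The aminotransferases, which catalyse the last step of all 3 pathways, differed in sign: the mitochondrial BAT1 (YHR208W) had -0.24 ± 0.14 and the cytosolic BAT2 (YJR148W) 0.29 ± 0.13 (edgeR adjusted p = 0.257 and 0.125).

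**Figure D2:**
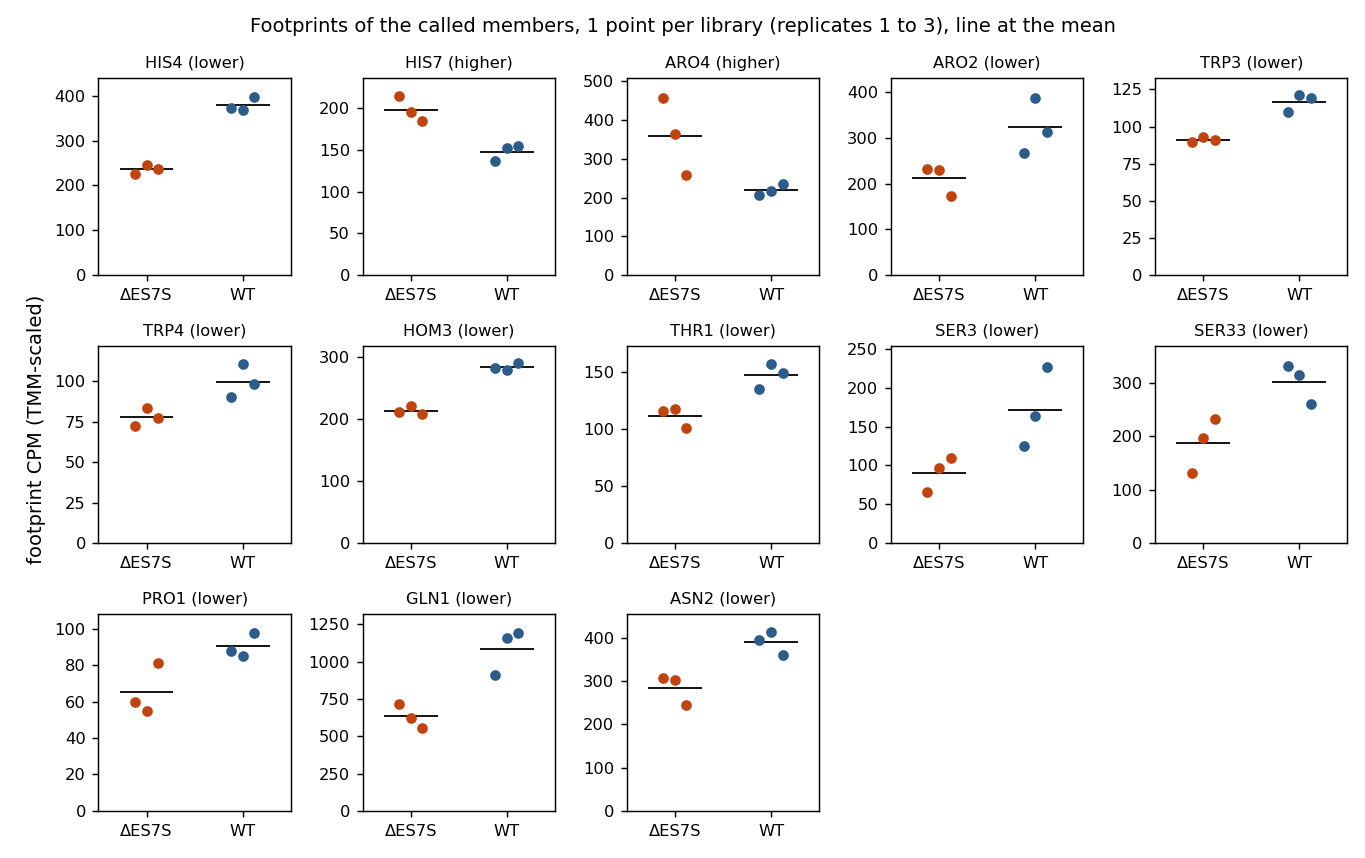
Footprint level (y axis, TMM-scaled CPM, from 0) of the 13 members called in the footprint comparison, with 1 point per library for ΔES7S (left in each panel) and WT (right) and a line at the mean of 3. The groups do not overlap in any of the 13 panels; HIS4 ranges from 225 to 246 CPM in ΔES7S, against 367 to 397 CPM in WT.

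Averaged over the genes of a pathway, log2 CPM placed the libraries as follows. The serine group lay between -0.76 and -0.40 relative to the WT mean in the ΔES7S footprint libraries, against -0.11 to 0.09 in WT. The glutamate, glutamine and asparagine group lay between -0.55 and -0.23 in ΔES7S, against -0.09 to 0.06 in WT. Both ranges are clear of the WT libraries. The homoserine and threonine group (-0.27 to -0.14 in ΔES7S, against -0.01 to 0.02 in WT) and the aromatic group (-0.25 to -0.09 in ΔES7S, against -0.05 to 0.04 in WT) were also below every WT library, by less. The histidine group (-0.14 to -0.10 in ΔES7S, against -0.12 to 0.09 in WT) and the isoleucine and valine group (-0.46 to 0.06 in ΔES7S, against -0.13 to 0.12 in WT) overlapped WT. The leucine group lay between -0.53 and -0.041 in ΔES7S, against -0.0039 to 0.0039 in WT, and the proline group between -0.17 and -0.029 in ΔES7S, against -0.064 to 0.059 in WT. These levels are a description with no test.

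**Figure D3:**
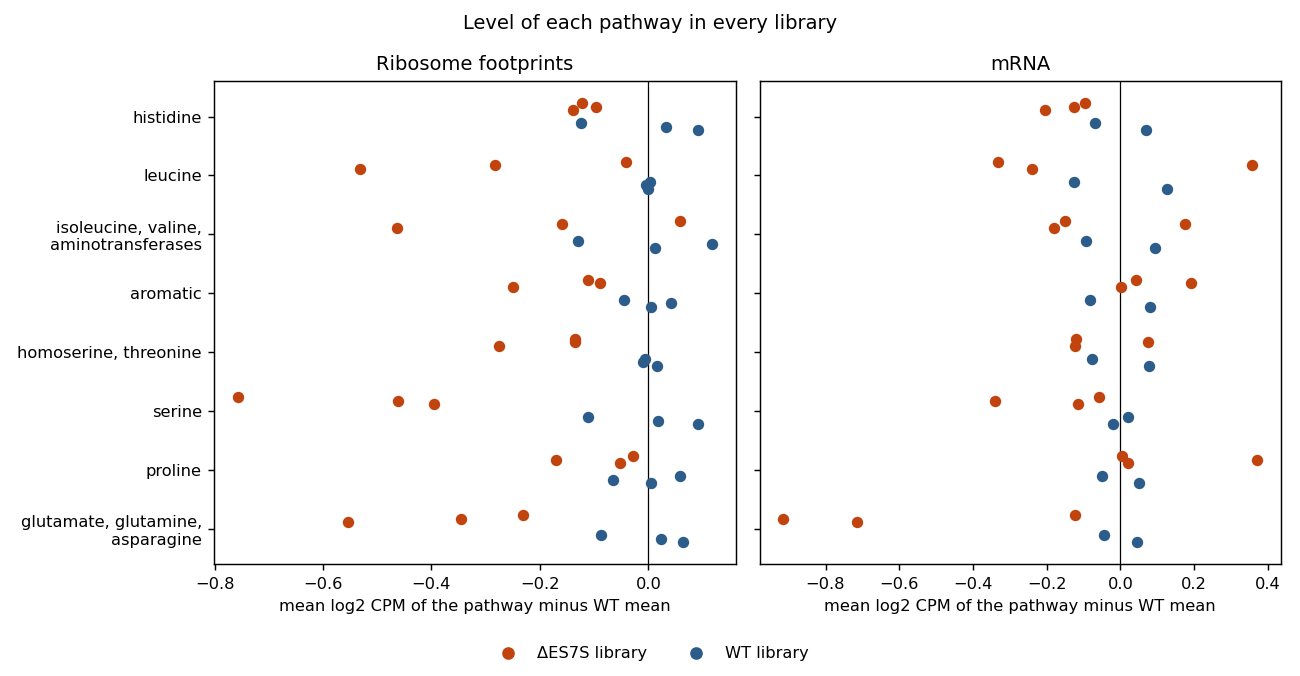
Mean log2 CPM of the genes of each pathway minus its WT mean (x axis) in every footprint library (left) and mRNA library (right), with ΔES7S points above WT points in each row. On the mean of the ΔES7S libraries, serine synthesis is the lowest group in footprints (libraries between -0.76 and -0.40) and the amide group in mRNA (between -0.91 and -0.12), but in footprint replicate 3 and in mRNA replicate 1 other groups are lower.

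The second comparison asks whether the mRNAs of the same genes differed in abundance. No member passed the mRNA test: 0 of 43 were called, against 2.76% of the 5611 genes tested (1.19% higher and 1.57% lower) and, outside chromosome II, 0.287% higher and 1.69% lower. The mRNAs with the lowest values were those of HIS4, GLN1, TRP3 and ASN1, and the highest value was that of ARO4. The median of the 43 members was -0.05, with 24 below 0 and 19 above, against -0.01 for all genes. At an unadjusted p under 0.05 edgeR placed 8 members lower (HIS2, HIS4, LEU1, BAT2, ARO2, TRP3, GLN1 and ASN2) and 1 higher (ARO4), and the smallest adjusted p was 0.0564. These are 9 of 43 members, against 1727 of the 5611 genes tested at the same unadjusted threshold, so the members did not exceed the other genes. DESeq2 called 3 members lower and 1 higher, against 510 lower and 526 higher of 5611 genes. Without ΔES7S mRNA replicate 1, edgeR called 10 members lower and 3 higher, against 1364 lower and 1103 higher of 5597 genes. In neither fit were members called more often than other genes. The WT mRNA group had 2 libraries.

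GLN1 mRNA was 262, 159 and 208 CPM in ΔES7S replicates 1 to 3, against 439 and 400.4 CPM in WT replicates 2 and 3. All ΔES7S libraries were below WT, at -1.04 ± 0.24 (edgeR adjusted p = 0.0564). HIS4 mRNA was 124, 46.5 and 60.1 CPM in ΔES7S replicates 1 to 3, against 191 and 220.0 CPM in WT replicates 2 and 3. The ΔES7S libraries differed among themselves by over 2-fold, all under WT, and the log2 fold change was -1.45 ± 0.39 (edgeR adjusted p = 0.0745). TRP3 mRNA, at 101, 68.7 and 69.3 CPM in ΔES7S and 129 and 146 CPM in WT, had -0.83 ± 0.21, again without overlap (edgeR adjusted p = 0.0668). ARO2 and ASN2 had -0.50 ± 0.19 and -0.47 ± 0.20, with all ΔES7S libraries below WT (edgeR adjusted p = 0.128 and 0.155). Outside the footprint calls, HIS2 and LEU1 had -0.41 ± 0.15 and -0.63 ± 0.21 (edgeR adjusted p = 0.126 and 0.1102). ARO4 mRNA was 855, 1266 and 899 CPM in ΔES7S replicates 1 to 3, against 479 and 586 CPM in WT replicates 2 and 3. Every ΔES7S library was above WT, at 0.87 ± 0.24 (edgeR adjusted p = 0.0798), and chromosome II as a whole had a median of 0.51 in mRNA. HIS7 mRNA had 0.35 ± 0.17, also with the groups apart.

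Of the 11 members with lower footprints, 9 had an mRNA log2 fold change below 0, and for 6 (HIS4, ARO2, TRP3, SER33, GLN1 and ASN2) every ΔES7S mRNA library lay below both WT libraries. The median mRNA change of the 11 was -0.42, and their median footprint change, which their choice fixes, was -0.49. TRP4 and THR1 had mRNA values of 0.033 ± 0.17 and 0.10 ± 0.21, and HOM3 and PRO1 of -0.15 ± 0.15 and -0.13 ± 0.19, with overlapping libraries. Among all members, every ΔES7S mRNA library was below WT for 12 (27.9%, against 26.5% of all genes) and above it for 6 (14.0%, against 28.8%). The 43 members took 1.43% to 1.65% of mRNA counts in ΔES7S and 1.70% to 1.84% in WT, as shares without TMM scaling. With TMM scaling the ranges overlapped: the mean log2 CPM of the 43 members lay between -0.17 and -0.0050 relative to the WT mean in ΔES7S mRNA, against -0.07 to 0.07 in WT. By pathway, the amide group lay at -0.12, -0.91 and -0.71 relative to the WT mean in ΔES7S mRNA replicates 1 to 3, against -0.04 and 0.04 in WT, so replicate 1 was much closer to WT than the others. The aromatic group lay between 0.0018 and 0.19 in ΔES7S, and between -0.08 and 0.08 in WT.

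The third comparison asks whether footprints changed by more or less than mRNA, as translation efficiency, which was tested as a strain-by-assay interaction in 1 fit of all 11 libraries. Of the 43 members 1 was higher, the branched-chain aminotransferase BAT2, 0 were lower and 42 did not pass, against 8.97% of 5588 genes called (4.63% higher and 4.33% lower). The median of the members was -0.23, with 31 below 0, against -0.0072 for all genes. At an unadjusted p under 0.05 edgeR placed HIS6, TRP5, THR1 and SER1 lower and BAT2 higher. These are 5 of 43 members, a smaller share than the 1621 of 5588 genes at that threshold. DESeq2 called 2 members lower and 1 higher, against 428 lower and 475 higher of 5588 genes. Upper-quartile scaling moved the median of all genes to 0.10 and that of the members to -0.12, and split the calls over all genes into 278 higher and 139 lower, against 259 and 242 with TMM.

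BAT2 footprints were 313, 311 and 263 CPM in ΔES7S replicates 1 to 3, against 251, 262 and 213 CPM in WT replicates 1 to 3, so that all ΔES7S libraries were above WT, by little. BAT2 mRNA was 301, 219 and 258 CPM in ΔES7S replicates 1 to 3, against 380.0 and 355 CPM in WT replicates 2 and 3, with all ΔES7S libraries below WT. The fitted change in translation efficiency was 0.79 ± 0.22 on the log2 scale (edgeR adjusted p = 0.0445), and neither footprints nor mRNA passed on their own. The call was lost without any 1 of 9 libraries, which includes every WT library, and kept without ΔES7S footprint replicate 3 or ΔES7S mRNA replicate 1. HIS6, whose enzyme isomerises an intermediate of histidine synthesis, had the lowest value, -0.80 ± 0.31 (edgeR adjusted p = 0.116), with footprints of 53.4, 53.2 and 48.5 CPM in ΔES7S and 56.0, 54.1 and 56.1 CPM in WT and mRNA of 53.0, 114 and 76.1 CPM in ΔES7S and 47.7 and 51.9 CPM in WT. SER1 had -0.53 ± 0.18, THR1 -0.54 ± 0.24 and TRP5 -0.53 ± 0.23 (edgeR adjusted p = 0.0780, 0.152 and 0.149). HIS4, GLN1 and TRP3, whose footprints were lower, had 0.73 ± 0.40, 0.22 ± 0.30 and 0.43 ± 0.22, above 0. For SER3, SER33, HOM3, PRO1 and TRP4 the values were below 0, from -0.56 (SER3) to -0.30 (HOM3), and none passed.

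**Figure D4:**
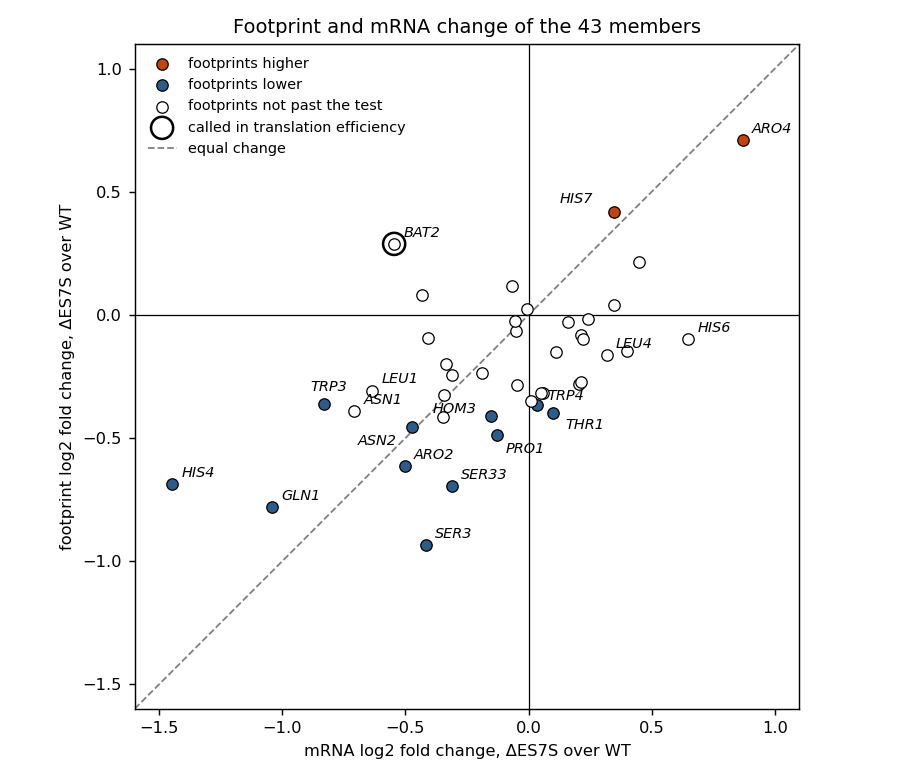
Footprint log2 fold change (y axis) against mRNA log2 fold change (x axis), ΔES7S over WT, for the 43 members, with filled points for footprint calls, a ring for the translation efficiency call and a dashed line of equal change. HIS4 and GLN1 lie low on both axes, ARO4 is high on both, and BAT2, the ringed point, has 0.29 in footprints and -0.55 in mRNA.

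The ratio of mean footprint CPM to mean mRNA CPM, a quantity within a gene, ranged among the members from 0.256 (THR1) to 3.06 (HIS4) in ΔES7S, with a median of 0.868, and from 0.349 (LEU9) to 2.93 (SER33) in WT, with a median of 0.935. The ratio exceeded 2 for 3 members in ΔES7S and 4 in WT. GLN1 had a ratio of 3.03 in ΔES7S and 2.59 in WT, and SER3 of 1.91 in ΔES7S and 2.79 in WT. At the low end stood ILV6 with 0.297 in ΔES7S and 0.448 in WT, and HIS1 with 0.365 in ΔES7S and 0.430 in WT.

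In 5 steps yeast has a pair of related enzymes, and the ratio of their CPM within each library shows how the pair was made up. ARO4 over ARO3 was 1.97, 1.52 and 1.15 in ΔES7S footprint replicates 1 to 3, against 0.864, 0.952 and 0.975 in WT. In mRNA it was 4.20, 5.82 and 4.90 in ΔES7S, against 2.63 and 2.62 in WT. The groups were apart in both assays, and of the pair only ARO4 lies on chromosome II. BAT2 over BAT1 was 1.62, 2.12 and 2.04 in ΔES7S footprints, against 1.42, 1.36 and 1.16 in WT, and in mRNA it overlapped, at 0.951, 0.480 and 0.863 in ΔES7S and 1.09 and 0.810 in WT. LEU9 over LEU4, SER3 over SER33 and ASN2 over ASN1 overlapped between the strains in both assays. The first was 0.0486 to 0.0920 in ΔES7S footprints and 0.0693 to 0.0882 in WT, so that LEU4 held most counts of the pair in both strains. As for the serine and asparagine pairs, how reads that match both LEU4 and LEU9 were counted is not given. The split of counts between them is therefore uncertain.

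**Figure D5:**
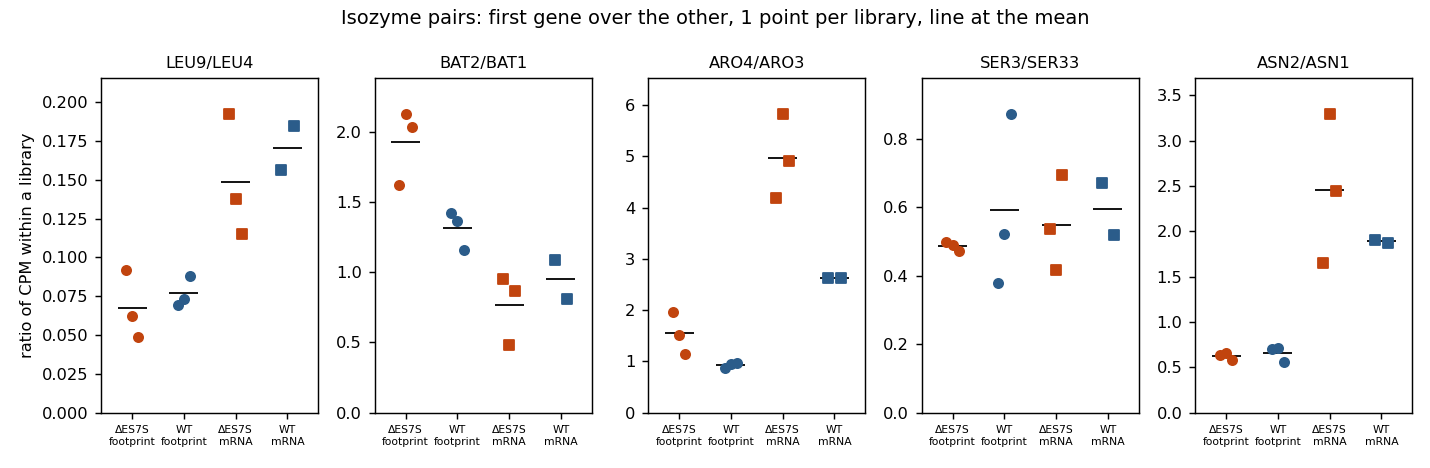
Ratio of CPM between the genes of 5 isozyme pairs (y axis, from 0) in each library, for ΔES7S and WT footprints (circles) and mRNA (squares), with a line at the mean. ARO4 over ARO3 is 1.15 to 1.97 in ΔES7S footprints, against 0.864 to 0.975 in WT, and SER3 over SER33 overlaps.

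Of 18 further genes of these pathways or of the steps next to them, 1 had higher and 2 had lower footprints in ΔES7S. Over all genes tested, 14.2% were called higher and 12.6% lower in footprints, 2.76% were called in mRNA and 8.97% in translation efficiency. TYR1 (YBR166C), prephenate dehydrogenase of the tyrosine branch, had 264, 224 and 218 CPM in ΔES7S replicates 1 to 3, against 141, 132 and 149 CPM in WT replicates 1 to 3. The groups were far apart at 0.74 ± 0.12 (edgeR adjusted p = 0.00179), and TYR1 is on chromosome II, 0.14 above its median. The part of that shift in the TYR1 result was not tested. GLY1 (YEL046C), threonine aldolase, which makes glycine from threonine, had 325, 322 and 290.4 CPM in ΔES7S replicates 1 to 3, against 400.0, 556 and 501 CPM in WT replicates 1 to 3. It was lower in ΔES7S, at -0.64 ± 0.15 (edgeR adjusted p = 0.0108) while its mRNA had 0.15 ± 0.16, and it was the 1 gene of the 18 called in translation efficiency, at -0.83 ± 0.23 (edgeR adjusted p = 0.0418). Its footprint call was lost narrowly without ΔES7S replicate 2, WT replicate 2 or WT replicate 3 (adjusted p up to 0.0557). Its translation efficiency call was lost without any 1 library other than WT footprint replicate 1 and ΔES7S mRNA replicate 1 (adjusted p up to 0.156). AAT2 (YLR027C), the cytosolic aspartate aminotransferase, which supplies the aspartate for threonine and asparagine, had 343, 354 and 317 CPM in ΔES7S replicates 1 to 3, against 461, 567 and 522 CPM in WT replicates 1 to 3. The groups were apart, at -0.61 ± 0.13 (edgeR adjusted p = 0.00788). In mRNA 1 of the 18 passed: LEU2 (YCL018W), isopropylmalate dehydrogenase, at 12.1, 6.50 and 8.84 CPM in ΔES7S replicates 1 to 3, against 24.7 and 24.8 CPM in WT replicates 2 and 3, with a log2 fold change of -1.46 ± 0.28 (edgeR adjusted p = 0.0444). The call was lost (adjusted p up to 0.305) without any 1 of the libraries other than ΔES7S replicate 1. LEU2 footprints overlapped, and the labels do not say whether LEU2 serves as a marker in these strains.

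Among 7 regulators of these pathways, GCN4 and BAS1 had lower and ARO80 higher footprints, where 12.6% of all genes tested were called lower and 14.2% higher. GCN4 (YEL009C) footprints were 95.5, 92.4 and 123 CPM in ΔES7S replicates 1 to 3, against 207, 296 and 319 CPM in WT replicates 1 to 3. No ΔES7S library came near the WT libraries, and the log2 fold change was -1.41 ± 0.18 (edgeR adjusted p = 0.00103), a 2.65-fold lower level. GCN4 mRNA was 2767, 3785 and 3097 CPM in ΔES7S replicates 1 to 3, against 2183 and 2355 CPM in WT replicates 2 and 3, above WT in each ΔES7S library, and its log2 fold change of 0.46 ± 0.24 did not pass (edgeR adjusted p = 0.228). Its translation efficiency was lower in ΔES7S, with a log2 fold change of -1.91 ± 0.32 (edgeR adjusted p = 0.0117), a call lost without either WT mRNA library (adjusted p = 0.0915 and 0.0536). BAS1 (YKR099W), the activator of histidine and purine genes, had 18.3, 19.6 and 28.8 CPM in ΔES7S replicates 1 to 3, against 40.9, 38.4 and 50.6 CPM in WT replicates 1 to 3. The groups were apart, at -0.9995 ± 0.18 (edgeR adjusted p = 0.00378), and its translation efficiency had -1.01 ± 0.26 (edgeR adjusted p = 0.0347, and up to 0.148 with the call lost without any 1 library other than ΔES7S footprint replicate 3 or ΔES7S mRNA replicate 1), with mRNA close to WT at 78.7, 91.0 and 70.5 CPM in ΔES7S and 76.7 and 81.0 CPM in WT. ARO80 (YDR421W), the activator of aromatic amino acid catabolism, had 71.3, 69.2 and 71.0 CPM in ΔES7S and 50.4, 55.2 and 60.5 CPM in WT, a log2 fold change of 0.34 ± 0.10 (edgeR adjusted p = 0.0348), and lost its call without ΔES7S or WT replicate 1 or 2 (adjusted p from 0.0597 to 0.0965). GCN2, LEU3, PHO2 and GLN3 had footprint values between -0.0061 (GLN3) and 0.11 (LEU3), and none passed.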

How the data were processed

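Footprints and mRNA were sequenced from ΔES7S and WT yeast. Per the labels' protocols, footprints came from RNase I digestion and 80S ribosomes of a gradient, and mRNA was enriched with oligo-dT and fragmented. Fragments of 24 to 28 nt were amplified in 4 to 8 PCR cycles, with no molecular identifiers named. The submitters' processing notes name FastQC 0.11.7 and Bowtie 1.2.3. Not given in the sources used here are the counting tool, its treatment of strand and of ambiguous reads, and the genome build. For every library the authors deposited a table of unnormalised counts per gene with at least 1 count, and a missing gene was set to 0.

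The counts were fitted in R 4.3.3 with edgeR 4.0.16: filterByExpr, TMM, glmQLFit with robust dispersion and glmQLFTest, two-sided, Benjamini-Hochberg over all genes tested, with a threshold of 0.05. The 3 comparisons are ΔES7S minus WT in footprints (6 libraries), in mRNA (5 libraries) and as the interaction over all 11. The SE of a log2 fold change is its absolute value over the square root of F. Levels are CPM scaled by TMM factors over all 11 libraries (0.804 to 1.11). Their ratios can differ slightly from the fitted folds, which use the factors of each comparison. Pathway levels are means of log2 CPM with a prior count of 2. Changes are relative to the other genes, since no spike-in is named. Counting error is small here next to the spread between libraries and does not cover PCR copies. The scripts were tested on simulated data.

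Of 5756 genes, 5752 matched the RefSeq gene table used for symbols. Chromosomes were read from the systematic names. The members and the gene lists were chosen with earlier results of these data known. Named genes were the members called in any comparison, both genes of each isozyme pair, the lowest and highest footprint change of each pathway, called genes among the other lists, and GCN4. Further genes were named after their values were seen, from HIS6 in translation efficiency to HIS2 and LEU1 in mRNA and the remaining members of each pathway. Alternatives were upper-quartile scaling, DESeq2 1.42.0, limma-voom (limma 3.58.1), no filter, a replicate block, a joint fit, replicates 2 and 3 only, and each library left out. A fit without chromosome II genes was chosen after seeing the data. Levels per gene length, promoter motifs and protein comparisons were not analysed here.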

Additional observations from a re-analysis of the deposited data

How the results depend on the processing

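The footprint median of the members stayed below 0 under every alternative, and ran from -0.28 to -0.17 with 1 library left out. HIS4 kept its call in 12 of 13 alternatives (lost in the joint fit) and GLN1 in all 13, and the other 11 called members in 7 to 10 of theirs. The joint fit called 5 members lower, against 498 of 5588 genes. Without the genes of chromosome II, an alternative chosen after seeing the data, 10 members were lower and 0 higher in footprints (TRP4 lost its call), against 579 lower and 555 higher of 5059 genes. In mRNA that fit called 0 genes (1533 at an unadjusted p under 0.05). With 1 library left out, 684 to 1749 genes were called in footprints, with 2 to 16 members lower and 0 to 3 higher. In mRNA 0 to 2467 genes were called, with 0 to 10 members lower and 0 to 3 higher, and in translation efficiency 11 to 1848, with 0 to 5 lower, 0 to 4 higher and a median of the members from -0.32 to -0.066. Where 1 WT mRNA library remained, it was assumed to vary like the other groups. In mRNA DESeq2 called 1036 genes (3 members lower, 1 higher), the joint fit 1463 (5 lower, 2 higher) and limma-voom 327. In translation efficiency DESeq2 called 903 genes (2 members lower), and replicates 2 and 3 only 1679 (3 lower, 3 higher), with a median of -0.35. Upper-quartile scaling gave a median of -0.12. The cause of these differences was not tested.

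Samples with the same replicate number did not all deviate together: between strains, r of their deviations was 0.0077, 0.20 and 0.091 in footprints and -0.14 and -0.66 in mRNA. Between assays it was 0.048, -0.043 and 0.43 in ΔES7S replicates 1 to 3 and 0.19 and 0.041 in WT replicates 2 and 3. By this measure 1 of 11 libraries correlated best with its own number, and the numbers were not taken as pairs. Deviations were taken from the mean of each group, so those of the 2 WT mRNA libraries are exact opposites. The -0.66 thus returns as 0.66 between ΔES7S mRNA replicate 3 and WT mRNA replicate 2. With only 2 or 3 libraries per group, the measure cannot decide whether the numbers mark pairs. The replicate block called 1341 genes in footprints (10 members lower, 2 higher), 1924 in mRNA (7 lower, 2 higher) and 704 in translation efficiency (1 higher).

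Values near 0 changed sign, none of them called. Without chromosome II genes ARO3 had 0.0045, HIS1 0.0017, ARO1 0.015 and GLN3 0.025 in footprints, and BAS1 0.014 in mRNA (0.0024 with DESeq2, 0.023 in the joint fit). TRP4 mRNA had -0.043 and BAT1 translation efficiency 0.027 with upper-quartile scaling. With 1 library left out, footprint values ran from -0.064 to 0.24 for HOM2, -0.13 to 0.036 for HIS1, -0.030 to 0.10 for HOM6, -0.051 to 0.077 for PRO2, -0.14 to 0.11 for ARO1, -0.33 to 0.019 for ILV2, -0.28 to 0.028 for ILV6, -0.062 to 0.054 for GLN3 and -0.028 to 0.24 for LEU3. In mRNA they ran from -0.10 to 0.11 for TRP4, -0.088 to 0.19 for THR1, -0.26 to 0.010 for PRO1 and -0.11 to 0.071 for BAS1, and for BAT1 translation efficiency from -0.27 to 0.14. Depth limits LEU2 and BAS1 more than the other genes named, since they have the fewest counts.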

Other observations

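In 4 of the 8 groups the member with the lowest footprint change encodes the first enzyme of the chain, a reading made after the values were seen: HOM3 at -0.41 ± 0.11 in the threonine chain, PRO1 at -0.49 ± 0.15 in the proline chain, SER3 at -0.93 ± 0.26 in the serine chain and, without passing the test, LEU9 at -0.32 ± 0.22 in the leucine chain (SE; edgeR adjusted p = 0.0171, 0.0334, 0.0350 and 0.326). The paralog SER33 had -0.70 ± 0.20, while LEU4, the other gene of the first leucine step, had -0.16 ± 0.13, the highest of its group. The rank of LEU9 is not firm: LEU1 had -0.31 ± 0.13, and LEU9 ran from -0.62 to -0.13 with 1 library left out. Elsewhere the first enzymes were not the lowest, with HIS1 at -0.029 ± 0.13 and ARO3 and ARO4 at -0.027 ± 0.11 and 0.71 ± 0.19. In the isoleucine and valine group ILV5 was lowest at -0.42, with ILV1 at -0.29 ± 0.13 and ILV2 at -0.15 ± 0.18. In the amide group GLN1 was lowest at -0.78, and GDH1 was the highest at 0.12 ± 0.15. The threonine, proline, serine and leucine groups hold only 5, 3, 4 and 3 genes, and the last 2 each have 2 first-step genes. How many matches such small groups would give by themselves was not worked out. No test was made of this pattern. TRP1, the tryptophan gene that is a common plasmid marker, stood at 16392, 14781 and 11599 CPM in ΔES7S and 11229.8, 12436 and 10832 CPM in WT in footprints. The labels do not say whether TRP1 is on the rRNA plasmid. These libraries overlapped, at 0.31 ± 0.19 (edgeR adjusted p = 0.248). TRP1 mRNA went the other way, at 9621, 12433 and 12796 CPM in ΔES7S and 14630 and 13695 CPM in WT. Its log2 fold change was -0.34 ± 0.27 (edgeR adjusted p = 0.412). SHM1, the mitochondrial serine hydroxymethyltransferase gene, which also lies on chromosome II, had footprint and mRNA log2 fold changes of 0.30 ± 0.12 and 0.90 ± 0.23 (edgeR adjusted p = 0.100 and 0.0673).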
